A study of Homo sapiens with 14 samples.

Results

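The arrays described here measure how far gene expression in Snai1ER gastric carcinoma cells moved from the untreated level when 4-hydroxytamoxifen (4-OHT) was given to cells with ANGPTL4 knockdown. The arrays were chosen by their labels and are 3 of the 14 in the series: Snai1ER cells with ANGPTL4 knockdown after 2 days and after 4 days of 20 ng/mL 4-OHT, set against Snai1ER cells with no 4-OHT at day 4. Snai1ER arrays after 2 and 4 days of the same dose without knockdown are given side by side, and the untreated parental array at day 2 is given by counts over all changed genes and as a level for some of the named ones. The labels call the parental line MKN28 and the paper calls it MKN74, an epithelial gastric carcinoma line grown as colonies, and Snai1ER cells carry a Snai1-ER transgene. The treatment notes name the knockdown cells separately, as Snai1ER cells with an shRNA against ANGPTL4, without saying whether either line is 1 clone or how many cultures were pooled. All values are log2 expression levels, 1 array per condition. The paper describes a Snai1ER line whose shRNA against ANGPTL4 is induced by doxycycline. The labels do not say whether doxycycline was given for these arrays. No array holds knockdown cells without 4-OHT. In any difference from the untreated array, 4-OHT, the knockdown, any doxycycline and the difference between the 2 cell lines therefore cannot be told apart.

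SNAI1 encodes Snail, a zinc finger repressor that binds E-box sequences in promoters of epithelial genes and starts the epithelial-mesenchymal transition (EMT), in which cells loosen their junctions and gain a contractile, motile state. Fused to the oestrogen receptor's ligand binding part, it is held inactive until 4-OHT binds, so the protein's activity and not its mRNA is switched. ANGPTL4 is a secreted protein that inhibits lipoprotein lipase and whose fragments act on matrix and integrins. Cells short of amino acids or with misfolded proteins translate the transcription factor ATF4, which turns on genes for amino acid synthesis and uptake.

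The labels were checked first. SNAI1 read 9.85 at day 2 and 8.80 at day 4 with knockdown, 9.62 and 9.55 with 4-OHT alone, and 9.58 untreated, against 4.76 to 6.19 on the 9 parental arrays, so all 5 Snai1ER arrays carry high SNAI1 and day 4 with knockdown is the lowest of them. ANGPTL4 read 5.35 and 5.28 with knockdown, 5.43 and 5.05 with 4-OHT alone and 5.27 untreated. These ANGPTL4 levels lie below the level of 5.9 that a gene's mean over all arrays had to reach to be kept, so this probe set does not show the knockdown. All 8 epithelial markers were kept, and none of the 5 measured immune or 5 endothelial markers was. Of 7 fibroblast markers only COL1A1 was kept, at 7.07 and 7.03 with knockdown and 6.81 untreated. The median of all probe sets was 6.06 at day 2 and 6.12 at day 4 with knockdown, 5.997 and 6.004 with 4-OHT alone and 6.04 untreated. It was lowest on the parental TGFβ arrays without knockdown, at 5.23 at day 1 and 5.19 at day 2. The parental SNAI1 level of 4.76 comes from the latter array. These TGFβ arrays also enter each gene's mean over all arrays.

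Of 11050 genes kept, 744 (6.73%) differed at least 1.5-fold from the untreated array in the same direction on both days. This is a rule of size without a test, and "rose" and "fell" are used below of genes past it. With knockdown and 4-OHT, 207 genes rose (1.87% of genes kept) and 537 fell (4.86%). Each count of list members with knockdown below is to be read beside these 2 shares. With 4-OHT alone, 254 rose (2.3%) and 131 fell (1.19%) by the same rule, against the same untreated array. The median over all genes was 0 at day 2 and -0.03 at day 4 with knockdown, and only 34 genes passed 1.5-fold in opposite directions on the 2 days. COPS9, a subunit of the COP9 signalosome, lay just inside the rule at -0.59 and -0.73, and P4HA2, a collagen prolyl hydroxylase, just outside it at -0.58 and -1.30.

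Both differences share the untreated array, so a value that was off on that array alone would pass on both days. The untreated Snai1ER array was the highest of 6 arrays, the others being both knockdown arrays, 4-OHT alone at days 2 and 4 and the untreated parental array, in 163 of the 537 genes that fell (30.4%, against 9.98% of all genes kept). It was the lowest of the 6 in 84 of the 207 that rose (40.6%, against 9.33%). Both knockdown arrays were lower than each of the other 4 in 447 of the genes that fell (83.2%, against 15.4% of all genes) and higher than each in 139 of those that rose (67.1%, against 12%). The rule itself set both knockdown arrays beyond the untreated Snai1ER array, so all of these shares are partly fixed by it and nothing is read from them.

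The parental array shows how far the untreated level differed between the lines. It lay at least 1.5-fold above the untreated Snai1ER array in 69 of the 207 genes that rose (33.3%, against 8.11% of all genes) and at least 1.5-fold below it in 81 of the 537 that fell (15.1%, against 4.74%). Both knockdown arrays were at least 1.5-fold above the parental array as well in 66 of the genes that rose, and at least 1.5-fold below it in 313 of those that fell. The line and the day of the parental array differ from those of the untreated Snai1ER array, and the part of either in these counts was not tested. A limma fit over all 14 arrays, with the 2 days of a group as its members and the lone untreated array assumed to vary like the other groups, called none of the 11050 genes (0%) against untreated at an adjusted p under 0.05. The smallest adjusted p was 0.103, and 842 genes had an unadjusted p under 0.05.

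The largest rises joined a lipid enzyme, an amino acid carrier, a stress gene and several noncoding RNAs. SCD, the desaturase that makes monounsaturated fatty acids, read 10.17 and 10.18 with knockdown, 10.36 and 10.14 with 4-OHT alone and 8.18 untreated, so the 4 treated arrays lay together, and with knockdown it was 3.99-fold and 4.02-fold above untreated. The untreated parental array read 11.49 for SCD, above all 4 treated arrays, so the untreated Snai1ER array was the lowest of the 6. DDIT4, a stress-induced inhibitor of mTORC1, read 6.66 and 7.71 with knockdown, 7.39 and 8.45 with 4-OHT alone and 5.06 untreated. It was higher on day 4 than on day 2 with and without knockdown, and each knockdown array lay below the array of 4-OHT alone of its day. Its untreated parental level was 7.79, also far above the untreated Snai1ER level. SLC7A5, the large neutral amino acid transporter, read 10.36 and 10.14 with knockdown, 9.15 and 9.32 with 4-OHT alone, 8.67 untreated and 9.04 on the parental array. GABBR1, a subunit of the GABA-B receptor, read 6.34 and 6.22 with knockdown, 5.68 and 6.24 with 4-OHT alone, 4.78 untreated and 6.20 on the parental array.

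Another set of rises stood above the arrays of 4-OHT alone as well. INPP4B, a phosphoinositide phosphatase, read 6.63 and 7.39 with knockdown, 5.63 and 5.64 with 4-OHT alone and 5.08 untreated. CYP19A1, aromatase, read 6.50 and 7.15 with knockdown, 5.45 and 5.33 with 4-OHT alone and 5.21 untreated. CATSPER2, a subunit of the sperm calcium channel, read 6.78 and 6.92 with knockdown, 5.80 and 5.22 with 4-OHT alone and 4.94 untreated. In all 3 genes both knockdown arrays lay above each of the other Snai1ER arrays. The untreated parental array read 6.98 for INPP4B, between the knockdown arrays, 6.51 for CYP19A1, level with the knockdown array of day 2, and 6.26 for CATSPER2, below both. SESTD1 read 8.24 and 8.76 with knockdown, 7.35 and 7.02 with 4-OHT alone, 6.62 untreated and 6.71 on the parental array. ZNF814, a zinc finger gene, read 8.41 and 8.33 with knockdown, 7.51 and 6.60 with 4-OHT alone, 6.74 untreated and 7.64 on the parental array.

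The largest rise of all was in MTND2P28, a nuclear pseudogene copy of the mitochondrial gene for ND2, at 12.03 and 11.67 with knockdown, 8.31 and 9.44 with 4-OHT alone and 9.15 untreated. Its probes cannot be assumed to tell the copy from mitochondrial RNA, so its identity is uncertain. LINC02912, a long noncoding RNA, and TMEM14EP, a pseudogene, were higher with knockdown and lower with 4-OHT alone than untreated. LINC02912 read 7.79 and 7.71 with knockdown, 5.55 and 5.18 with 4-OHT alone and 5.88 untreated. TMEM14EP read 8.42 and 8.70 with knockdown, 5.31 and 4.80 with 4-OHT alone and 6.90 untreated. HCG8, a noncoding RNA, was uneven over time, at 6.18 and 7.58 with knockdown, 6.05 and 5.29 with 4-OHT alone and 5.43 untreated.

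**Figure D1:**
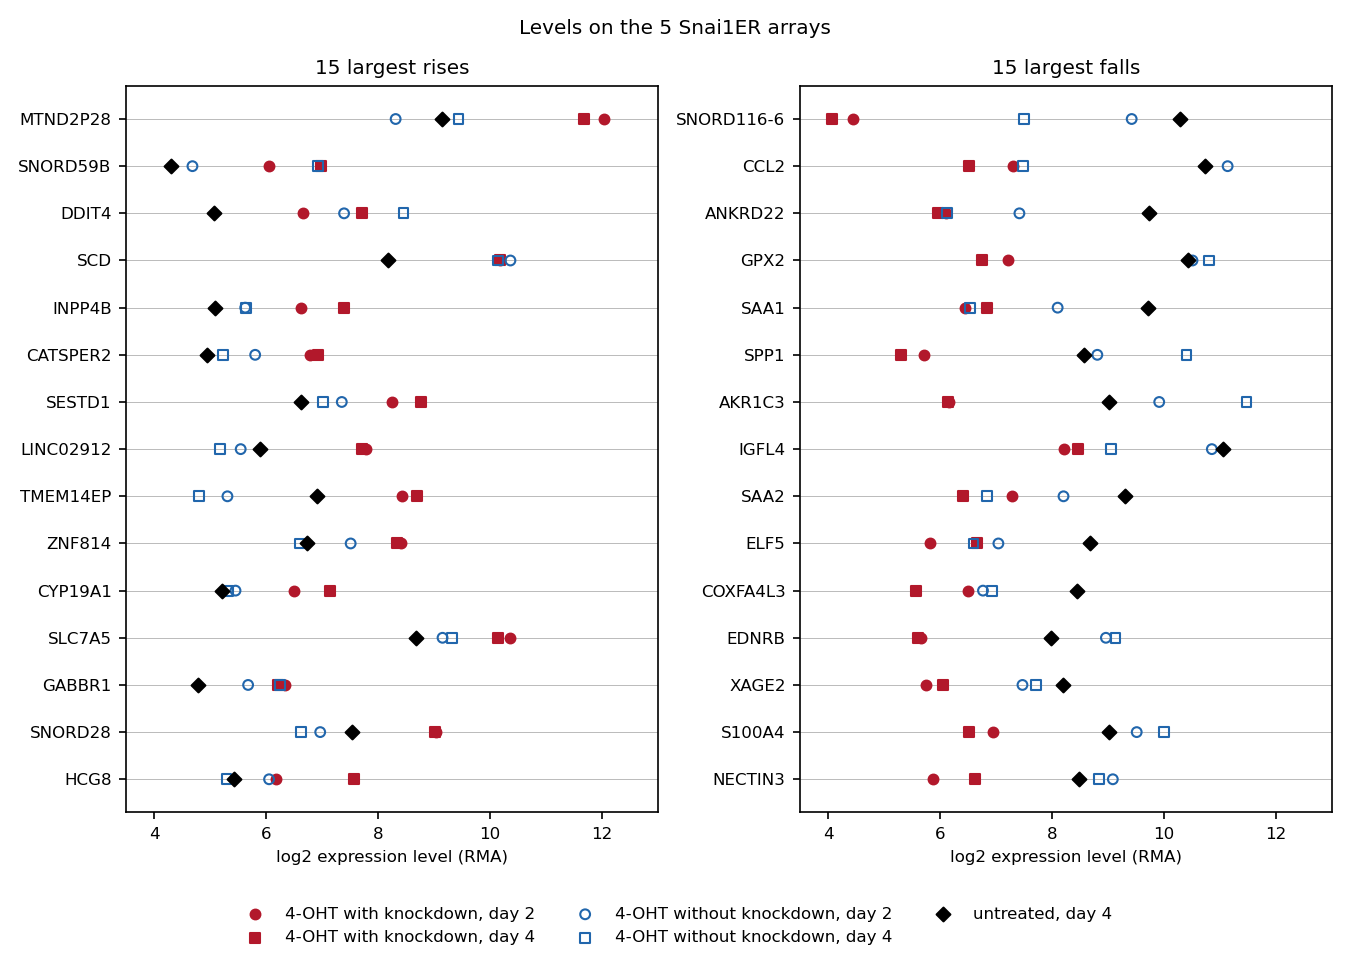
Log2 expression levels (x axis) of the 15 genes with the largest rise (left) and the 15 with the largest fall (right) on the 5 Snai1ER arrays, 1 point per array: filled red for 4-OHT with knockdown, open blue for 4-OHT without, black for untreated, circles for day 2 and squares or diamonds for day 4. The points of SCD on the 4 treated arrays lie between 10.14 and 10.36, while those of GPX2 with knockdown lie at 7.22 and 6.75 and those without knockdown beside the untreated 10.43.

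The falls were larger than the rises. GPX2, an epithelial glutathione peroxidase, read 7.22 and 6.75 with knockdown, 10.51 and 10.80 with 4-OHT alone and 10.43 untreated, 9.27-fold and 12.8-fold below untreated. AKR1C3, an aldo-keto reductase of steroid and prostaglandin metabolism, read 6.16 and 6.14 with knockdown, 9.91 and 11.47 with 4-OHT alone and 9.02 untreated. It has close paralogs whose transcripts its probes may share. SPP1, which encodes the secreted matrix protein osteopontin, read 5.72 and 5.30 with knockdown, 8.81 and 10.40 with 4-OHT alone and 8.57 untreated. In these 3 genes both arrays of 4-OHT alone lay above untreated while both knockdown arrays lay far below it. The untreated parental array was higher still than untreated Snai1ER, at 11.26 for GPX2, 10.89 for AKR1C3 and 10.54 for SPP1.

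EDNRB, NECTIN3 and S100A4 had the same arrangement on the Snai1ER arrays. The untreated parental array was above untreated Snai1ER for EDNRB (8.31) and S100A4 (9.85) and below it for NECTIN3 (8.02). EDNRB, an endothelin receptor, read 5.65 and 5.60 with knockdown, 8.96 and 9.13 with 4-OHT alone and 7.98 untreated. NECTIN3, a cell adhesion molecule of adherens junctions, read 5.87 and 6.63 with knockdown, 9.09 and 8.84 with 4-OHT alone and 8.49 untreated. S100A4, a calcium-binding protein widely used as a mesenchymal marker, read 6.95 and 6.52 with knockdown, 9.51 and 9.99 with 4-OHT alone and 9.02 untreated. Of the mesenchymal list S100A4 was the gene past the rule with the larger difference, and that difference was a fall. XAGE2, a cancer-testis antigen, read 5.74 and 6.06 with knockdown, 7.47 and 7.71 with 4-OHT alone and 8.19 untreated, so its arrays of 4-OHT alone lay below untreated too.

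Another set of falls was shared with 4-OHT alone, at least at day 4. ANKRD22, an ankyrin repeat protein, read 6.11 and 5.97 with knockdown, 7.42 and 6.12 with 4-OHT alone and 9.73 untreated, 12.3-fold and 13.6-fold below untreated with knockdown. ELF5, an ETS factor of epithelial cells, read 5.82 and 6.67 with knockdown, 7.04 and 6.60 with 4-OHT alone and 8.67 untreated. IGFL4, an insulin-like growth factor family member, read 8.22 and 8.46 with knockdown, 10.85 and 9.05 with 4-OHT alone and 11.05 untreated. COXFA4L3, a paralog of a cytochrome c oxidase subunit, read 6.51 and 5.56 with knockdown, 6.77 and 6.93 with 4-OHT alone and 8.44 untreated. For all 4, the untreated parental array was also high, at 10.05 for ANKRD22, 10.10 for ELF5, 11.59 for IGFL4 and 8.42 for COXFA4L3.

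The inflammatory genes among the falls differed in that respect. CCL2, a chemokine that draws monocytes, read 7.29 and 6.52 with knockdown, 11.14 and 7.49 with 4-OHT alone and 10.72 untreated, but 6.61 on the untreated parental array. SAA1, an acute-phase serum amyloid, read 6.44 and 6.84 with knockdown, 8.10 and 6.54 with 4-OHT alone, 9.72 untreated and 5.84 in the untreated parental cells. SAA2 read 7.29 and 6.42 with knockdown, 8.20 and 6.84 with 4-OHT alone, 9.30 untreated and 6.52 parental. The untreated Snai1ER level of these 3 genes was therefore itself far above the parental level, and the falls were measured from it. SAA1 and SAA2 are near-identical copies, so the split between them is uncertain.

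Genes with nearly the same level with and without knockdown are those whose difference from untreated is seen on all 4 treated arrays. Of the 744 genes, 101 lay within 1.5-fold of the array of 4-OHT alone on both days, 49 of those that rose and 52 of those that fell. Among all genes kept 55.7% did. The rule set the knockdown arrays of the 744 away from untreated, so this comparison is partly fixed by it and nothing is read from it. Of the 10 nearest with a mean difference of at least 1 on the log2 scale, SCD rose and all others fell. CD83, a surface glycoprotein of maturing dendritic cells, read 7.65 and 7.47 with knockdown, 7.70 and 7.59 with 4-OHT alone and 8.83 untreated. CST6, cystatin E/M, a protease inhibitor of epithelia, read 6.77 and 6.55 with knockdown, 6.91 and 6.79 with 4-OHT alone and 8.57 untreated. SPRR3 and SPRR1B are small proline-rich proteins of the cornified envelope of squamous epithelia. SPRR3 read 5.87 and 6.03 with knockdown, 6.21 and 5.87 with 4-OHT alone and 7.67 untreated. SPRR1B read 6.54 and 6.57 with knockdown, 6.92 and 6.23 with 4-OHT alone and 7.70 untreated.

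The other members of this set also had all 4 treated arrays below untreated. BSPRY read 6.46 and 6.24 with knockdown, 6.58 and 6.48 with 4-OHT alone and 7.47 untreated. DAPP1, an adaptor of lymphocyte signalling, read 7.17 and 7.64 with knockdown, 7.42 and 7.55 with 4-OHT alone and 8.63 untreated. EPHA4, an ephrin receptor, read 6.07 and 5.81 with knockdown, 6.47 and 5.76 with 4-OHT alone and 7.23 untreated. In BSPRY both knockdown arrays lay slightly below 4-OHT alone of the same day, while in DAPP1 and EPHA4 they lay below at day 2 and above at day 4. RNF182, a ubiquitin ligase, read 6.28 and 5.84 with knockdown, 6.50 and 6.22 with 4-OHT alone and 7.42 untreated. In CDCA8, a chromosomal passenger protein of mitosis, the days differed more than the knockdown did, with 8.74 and 7.91 with knockdown, 9.20 and 8.34 with 4-OHT alone and 9.37 untreated. The 4 treated arrays share their untreated array, so its level enters each of these differences. On the untreated parental array CD83 read 7.56 and CDCA8 8.41, within the range of the treated arrays or close to it, and RNF182 6.74, between the treated arrays and untreated Snai1ER. SPRR3 read 10.03 there, SPRR1B 9.51, EPHA4 8.63 and DAPP1 9.39, farther above the treated arrays than untreated Snai1ER was.

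Snail binds the E-box CAGGTG. It was searched with its reverse complement CACCTG in the 250 bases before each gene's start in RefSeq promoters (GRCh38.p14), which matched 145 of the 207 genes that rose and 443 of the 537 that fell. The E-box was present in 13.1% of the promoters of genes that rose, 17.6% of those that fell, 15.9% of all genes kept and 17.5% of all 35116 promoters, so the shares lie close together. Among the 9 matched promoters of the 10 nearest genes, 4 held it, those of CD83, DAPP1, SPRR3 and SPRR1B. These promoters are shown because their genes fell to about the same level in 4-OHT with and without knockdown. E-boxes are in capitals, and a match is a description of letters, not a binding site.
CD83, chr6:14117021-14117106, plus strand: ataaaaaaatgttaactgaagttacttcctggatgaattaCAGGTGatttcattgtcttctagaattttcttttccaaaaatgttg
DAPP1, chr4:99816584-99816669, plus strand: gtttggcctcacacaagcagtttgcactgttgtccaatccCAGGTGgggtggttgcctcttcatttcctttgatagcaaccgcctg
SPRR3, chr1:153001550-153001635, plus strand: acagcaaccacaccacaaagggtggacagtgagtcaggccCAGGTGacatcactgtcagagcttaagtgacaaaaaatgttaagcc
SPRR1B, chr1:153030953-153031115, plus strand: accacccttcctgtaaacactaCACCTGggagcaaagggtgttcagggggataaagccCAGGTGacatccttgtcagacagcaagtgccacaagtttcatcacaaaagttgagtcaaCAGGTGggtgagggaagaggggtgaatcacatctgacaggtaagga
SPRR1B holds 3 E-boxes in this stretch, on both strands, and the ATF4 element described further on lies between them without overlap.

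Amino acid synthesis and transport was the gene list with the most rises. Of 31 members kept, 10 rose and 0 fell, against 1.87% and 4.86% of all genes, and the list's median difference was 0.49 at day 2 and 0.25 at day 4, against 0 and -0.03 for all genes. With 4-OHT alone 7 rose, with medians of 0.31 and 0.77. The serine pathway was represented by PHGDH, its entry enzyme, at 9.91 and 8.74 with knockdown, 9.16 and 10.15 with 4-OHT alone and 7.92 untreated, and by PSAT1, the aminotransferase that follows it, at 9.36 and 9.53 with knockdown, 8.81 and 9.75 with 4-OHT alone and 8.42 untreated. ASNS, asparagine synthetase, read 10.46 on both days with knockdown, 9.98 and 10.92 with 4-OHT alone and 9.54 untreated. In these 3 genes the knockdown array was above that of 4-OHT alone at day 2 and below it at day 4. The untreated parental array read 9.14 for PHGDH and 9.67 for PSAT1, above untreated Snai1ER as well.

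The other members that rose differed in where they stood against 4-OHT alone. ASS1, argininosuccinate synthase, read 8.75 and 8.92 with knockdown, 9.08 and 10.63 with 4-OHT alone, 7.54 untreated and 10.62 on the untreated parental array. SLC1A4, a neutral amino acid carrier, read 7.26 and 7.56 with knockdown, 6.93 and 8.25 with 4-OHT alone and 6.23 untreated. ASS1 was thus below 4-OHT alone on both days and SLC1A4 only at day 4. SLC7A11, the cystine-glutamate exchanger, read 11.93 and 12.10 with knockdown, 10.77 and 11.26 with 4-OHT alone and 11.09 untreated. MTHFD1L, a mitochondrial folate enzyme, read 9.68 and 9.56 with knockdown, 8.76 and 8.91 with 4-OHT alone and 8.88 untreated. SLC7A11, MTHFD1L and SLC7A5 were above both arrays of 4-OHT alone and above untreated. The glycine carrier SLC6A9 and the folate enzyme MTHFD2 were the other members that rose, by 0.79 and 0.63 and by 0.74 and 0.62.

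Members that did not pass the rule set the list's lower end. ARG2, mitochondrial arginase, read 7.72 and 7.89 with knockdown, 8.83 and 10.47 with 4-OHT alone and 8.34 untreated. GLUL, glutamine synthetase, read 7.10 and 6.83 with knockdown, 7.99 and 8.32 with 4-OHT alone and 7.16 untreated. CTH, the cysteine-forming enzyme of transsulfuration, read 6.29 and 6.34 with knockdown, 7.24 and 8.36 with 4-OHT alone and 6.19 untreated. In ARG2, GLUL and CTH the arrays of 4-OHT alone were high while those with knockdown stayed near or under the untreated level.

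**Figure D2:**
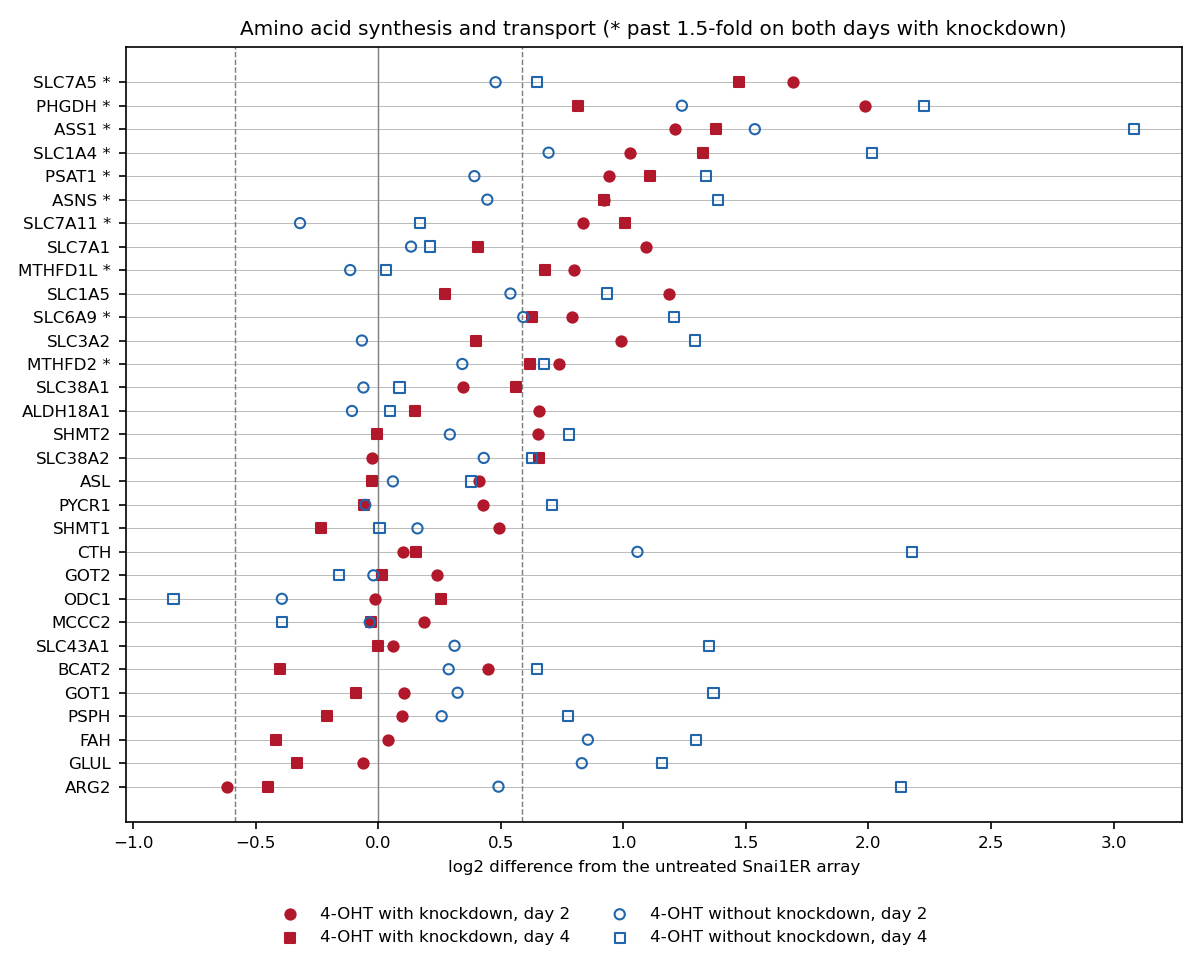
Log2 difference from the untreated Snai1ER array (x axis) for the 31 kept genes of amino acid synthesis and transport, 1 point per array: filled red for 4-OHT with knockdown, open blue for 4-OHT without, circles for day 2 and squares for day 4. Dashed lines mark 1.5-fold and stars the 10 genes past it on both days with knockdown, from SLC7A5 at 1.69 and 1.47 to MTHFD2 at 0.74 and 0.62.

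In the unfolded protein and ATF4 list 4 of 38 members rose (10.5%, against 1.87% of all genes) and 0 fell. The medians were 0.26 at day 2 and 0.19 at day 4. With 4-OHT alone 10 rose, where 2.3% of all genes did, with medians of 0.23 and 1.07. Beside DDIT4 the members that rose with knockdown were CHAC1, a glutathione-degrading enzyme, CREB3L2, a membrane-bound transcription factor, and SESN2, a leucine sensor. CHAC1 read 7.54 and 7.18 with knockdown, 7.02 and 8.33 with 4-OHT alone and 5.96 untreated. CREB3L2 read 7.35 and 7.41 with knockdown, 7.31 and 7.64 with 4-OHT alone and 6.59 untreated. SESN2, which the p53 list also holds, read 6.82 and 6.65 with knockdown, 6.05 and 6.61 with 4-OHT alone and 5.99 untreated, and was not past the rule once each array was centred on its median. On the untreated parental array CHAC1 read 7.24, between its knockdown arrays, and CREB3L2 7.68, above both of its own. SESN2 read 6.14 there, near untreated Snai1ER. The best known stress markers did not pass. DDIT3, the death-associated factor CHOP, read 6.81 and 7.17 with knockdown, 8.03 and 10.61 with 4-OHT alone and 6.84 untreated. HSPA5, the main chaperone of the endoplasmic reticulum, read 11.59 and 11.47 with knockdown, 11.63 and 12.60 with 4-OHT alone and 11.49 untreated. ATF4 itself read 9.48 and 9.02 with knockdown, 9.24 and 9.64 with 4-OHT alone and 9.03 untreated. Among tRNA synthetases, which attach amino acids to their tRNAs, 1 of 20 rose, GARS1 at 11.66 and 11.76 with knockdown, 11.25 and 11.64 with 4-OHT alone and 11.01 untreated, and it was not past the rule after quantile normalization.

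The ATF4 element TGATGNAA and its reverse complement were searched in the same promoters. It was found in 3.45% of the genes that rose, 2.93% of those that fell, 1.36% of all genes kept and 3.14% of all promoters. Of the 9 matched promoters of the 10 amino acid genes that rose 2 held it, those of ASNS and MTHFD1L, and CHAC1 held it as well. They are shown because their genes belong to the lists that rose, with the element in capitals, and none overlaps an E-box.
ASNS, chr7:97872429-97872516, minus strand: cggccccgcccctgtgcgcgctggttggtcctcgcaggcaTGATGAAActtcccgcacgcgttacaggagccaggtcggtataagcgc
MTHFD1L, chr6:150866317-150866404, plus strand: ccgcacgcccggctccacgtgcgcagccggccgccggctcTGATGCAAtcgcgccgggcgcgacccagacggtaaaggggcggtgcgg
CHAC1, chr15:40953222-40953309, plus strand: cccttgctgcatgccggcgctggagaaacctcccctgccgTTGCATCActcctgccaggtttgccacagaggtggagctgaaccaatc

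Lipid and sugar metabolism moved in few genes. In fatty acid synthesis 3 of 25 members rose and 1 fell. Beside SCD, ACSL4, which activates polyunsaturated fatty acids, read 8.69 and 8.80 with knockdown, 8.42 and 8.34 with 4-OHT alone and 7.99 untreated. ACACA, the acetyl-CoA carboxylase that starts the pathway, read 9.57 and 9.55 with knockdown, 9.42 and 8.23 with 4-OHT alone and 8.96 untreated, close to the rule's limit and not past it after centring or quantile normalization. The untreated parental array read 9.63 for ACACA, above both knockdown arrays, and 7.50 for ACSL4, below untreated Snai1ER. SCD5, another desaturase, read 6.75 and 6.59 with knockdown, 7.07 and 6.25 with 4-OHT alone and 7.36 untreated, opposite to SCD. In cholesterol synthesis and uptake 1 of 20 rose, INSIG1, which retains the sterol sensor, at 7.12 and 7.20 with knockdown, 7.64 and 7.35 with 4-OHT alone, 6.48 untreated and 9.54 on the untreated parental array. None of 19 fatty acid oxidation genes passed.

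In glycolysis and glycogen 1 of 26 rose and 1 fell. PCK2, the mitochondrial enzyme that makes phosphoenolpyruvate, read 8.27 and 8.24 with knockdown, 8.11 and 9.08 with 4-OHT alone and 7.07 untreated. PYGL, liver glycogen phosphorylase, read 6.41 and 6.27 with knockdown, 7.26 and 6.95 with 4-OHT alone and 7.25 untreated. The untreated parental array read 8.09 for PCK2, just below the knockdown arrays, and 6.77 for PYGL, between the knockdown arrays and untreated Snai1ER. PCK2 is classed with glucose formation rather than with glycolysis, and what its rise does in these cells was not tested. The median of the list was 0.23 at day 2 and -0.17 at day 4.

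The TCA cycle and respiratory chain list held 6 falls and 1 rise among 38 members, with medians of -0.18 at day 2 and -0.53 at day 4 with knockdown, and 0.05 and 0.01 with 4-OHT alone. The rise was IDH2, the mitochondrial NADP-linked isocitrate dehydrogenase, at 8.55 and 8.22 with knockdown, 8.56 and 8.72 with 4-OHT alone and 7.19 untreated. The untreated parental array read 8.58 for IDH2, above both knockdown arrays. The falls were all in subunits of the respiratory chain, NDUFA1, NDUFA2, NDUFB3, NDUFV2, SDHC and COX6C. To describe these in full, all subunits of the chain and of ATP synthase on the array were taken by their symbols, a family chosen after values had been seen. Of 76 kept, 0 rose and 28 fell (36.8%, against 4.86% of all genes), and 65 were below untreated on both days. With 4-OHT alone 0 rose and 0 fell, with medians of 0.05 on both days, against -0.50 and -0.64 with knockdown.

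By complex, 11 of 34 subunits fell in complex I, 1 of 3 in complex II, 4 of 9 in complex III, 5 of 14 in complex IV and 7 of 16 in ATP synthase. NDUFA2 of complex I, which takes electrons from NADH, read 8.04 and 7.62 with knockdown, 9.70 and 9.41 with 4-OHT alone and 9.35 untreated. UQCR11 of complex III, which passes electrons to cytochrome c, read 8.29 and 7.04 with knockdown, 9.38 and 9.69 with 4-OHT alone and 9.38 untreated. UQCR10 of the same complex read 9.61 and 8.94 with knockdown, 10.74 and 10.47 with 4-OHT alone and 10.75 untreated. Both knockdown arrays lay below the other 3 in each of these genes.

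COX6C of complex IV, the oxidase that uses oxygen, read 10.35 and 10.54 with knockdown, 11.39 and 11.56 with 4-OHT alone and 11.49 untreated. ATP5ME of ATP synthase read 10.35 and 9.30 with knockdown, 11.71 and 11.80 with 4-OHT alone and 11.79 untreated, the largest fall of the family. SDHC of complex II, which is shared with the TCA cycle, read 8.19 and 7.94 with knockdown, 9.08 and 9.09 with 4-OHT alone and 9.18 untreated. In COX6C and ATP5ME the untreated level lay between the arrays of 4-OHT alone, and in SDHC just above them.

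**Figure D3:**
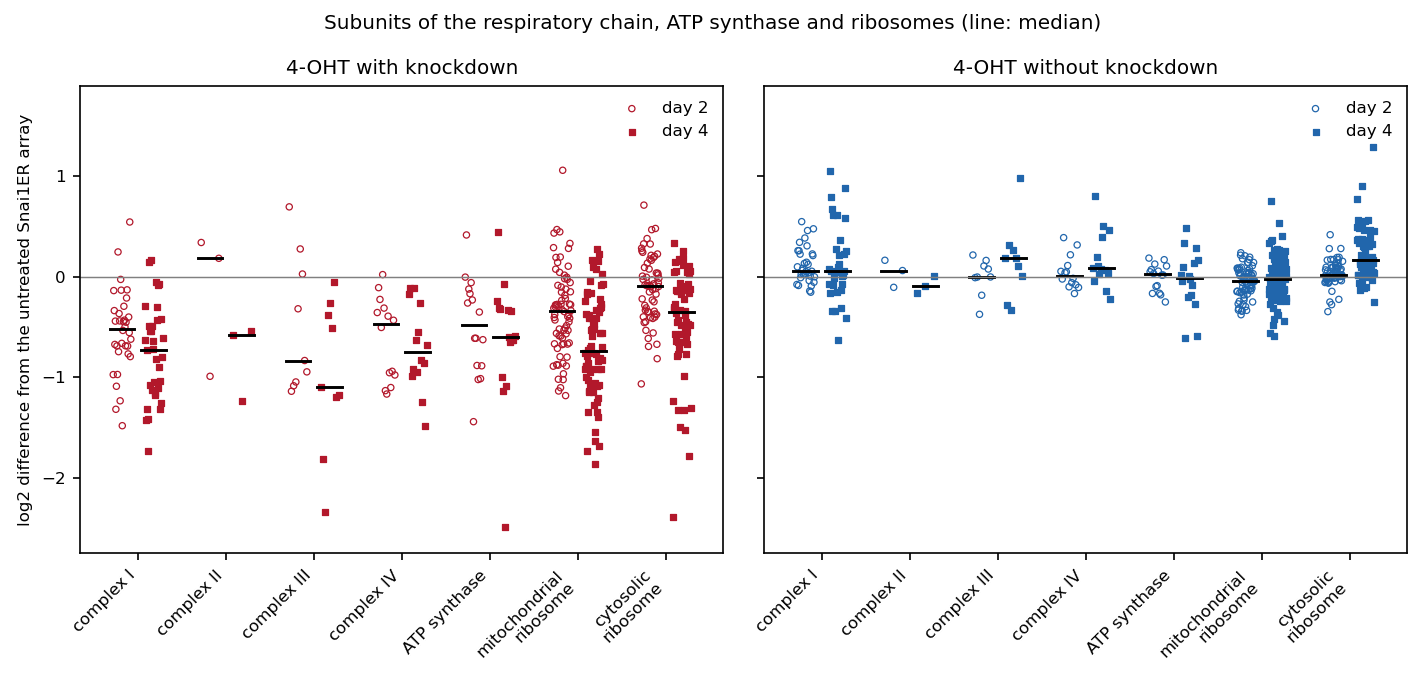
Log2 difference from the untreated Snai1ER array (y axis) of subunits of the respiratory chain, ATP synthase and the ribosomes, 1 point per gene, for 4-OHT with knockdown (left, red) and without (right, blue), with open circles for day 2, filled squares for day 4 and black lines for medians. The medians of complex I lie at -0.52 and -0.73 with knockdown and at 0.06 and 0.05 without.

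Other multi-subunit machines were described in the same way, again in families taken by symbol after values had been seen. Of 74 proteins of the mitochondrial ribosome, 0 rose and 17 fell (23%, against 4.86% of all genes), with medians of -0.34 and -0.74 with knockdown and -0.04 and -0.02 with 4-OHT alone. MRPL52 read 8.27 and 7.43 with knockdown, 9.22 and 9.52 with 4-OHT alone and 9.29 untreated. Of 62 proteins of the cytosolic ribosome 4 fell, FAU, RPS28, RPL34 and RPL35, a share of 6.45% that is near the 4.86% of all genes. FAU, which encodes ribosomal protein S30, read 9.98 and 8.66 with knockdown, 10.99 and 11.42 with 4-OHT alone and 11.05 untreated. Ribosomal proteins have many near-identical pseudogenes, so their probe sets are uncertain.

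Prefoldin hands actin and tubulin to the folding machinery. Of its 5 subunits found by symbol, all of them kept, 4 fell (80%, against 4.86% of all genes). A subunit under another symbol was not counted. PFDN6 read 7.38 and 7.19 with knockdown, 8.72 and 8.70 with 4-OHT alone and 8.74 untreated, and PFDN1, which did not pass, 9.39 and 8.80 with knockdown, 9.16 and 8.92 with 4-OHT alone and 9.24 untreated. HSPE1, the mitochondrial co-chaperonin and the 1 of 14 heat shock genes past the rule, read 9.72 and 10.13 with knockdown, 11.39 and 11.46 with 4-OHT alone and 11.50 untreated. Of 13 RNA polymerase II subunits 4 fell (30.8%), among them POLR2L at 9.86 and 9.06 with knockdown, 10.66 and 10.50 with 4-OHT alone and 10.64 untreated. Of 33 proteasome subunits 4 fell (12.1%), with medians of -0.43 and -0.59 with knockdown.

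Of 39 histone genes, which package new DNA, 1 rose, H2BC4, and 16 fell (41%, against 4.86% of all genes). The medians were -0.62 and -0.68 with knockdown, and 0.25 and -0.31 with 4-OHT alone. H2BC14, a histone H2B gene, read 6.66 and 6.87 with knockdown, 8.74 and 6.01 with 4-OHT alone and 8.68 untreated. H2AC20, a histone H2A gene, read 8.62 and 8.13 with knockdown, 9.89 and 8.91 with 4-OHT alone and 9.90 untreated. In both, 4-OHT alone stayed at the untreated level at day 2 and was low only at day 4. H2BC4 read 6.69 and 6.57 with knockdown, 6.34 and 5.39 with 4-OHT alone and 5.70 untreated. Histone genes of a class are near-identical copies, so the split between them is uncertain.

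These families hold many short genes, and falls were more frequent among genes of short span. The genomic span in RefSeq had a median of 16.7 kb in genes that fell and 32.6 kb in those that rose, against 27.3 kb in all genes kept. Of the 1104 genes with the shortest spans 9.06% fell, and of the 1104 with the longest 3.53%. The share that rose was 2.9% in the shortest and 3.17% in the longest, both above the 1.87% of all genes, so rises did not follow span as falls did. The median difference at day 4 was -0.13 in the shortest genes and 0.17 in the longest with knockdown, and 0.08 and -0.19 with 4-OHT alone, so the order was the opposite there. At day 2 these medians were 0.00 and 0.02 with knockdown. The part of span in the falls of these families was not tested.

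Small RNAs moved in both directions. Many, though not all, C/D box small nucleolar RNAs guide methylation of ribosomal RNA. Of the 46 kept, 8 rose (17.4%, against 1.87% of all genes) and 5 fell (10.9%, against 4.86%) with knockdown. With 4-OHT alone 1 rose and 9 fell, where 2.3% and 1.19% of all genes did. SNORD116-6, of the imprinted repeat cluster on chromosome 15, read 4.45 and 4.07 with knockdown, 9.42 and 7.50 with 4-OHT alone and 10.28 untreated, the largest fall of any gene, 57.2-fold and 74-fold below untreated. SNORD28 read 9.04 and 9.01 with knockdown, 6.97 and 6.63 with 4-OHT alone and 7.54 untreated. SNORD59B read 6.06 and 6.98 with knockdown, 4.68 and 6.93 with 4-OHT alone and 4.30 untreated. SNORD116-6 is 1 of many near-identical copies, and intronic small nucleolar RNAs share probes' targets with their host genes, so these values are uncertain.

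Of 32 microRNA genes kept, 3 rose (9.38%, against 1.87% of all genes), MIR181A2, MIR181B2 and MIR193A, and 1 fell (3.12%, against 4.86%), MIR21. The probe sets read the gene or its precursor, not the mature microRNA. MIR181A2 read 6.72 and 7.31 with knockdown, 5.40 and 4.87 with 4-OHT alone and 5.58 untreated. MIR181B2, its neighbour in the same cluster, read 6.78 and 6.86 with knockdown, 6.30 and 5.23 with 4-OHT alone and 6.01 untreated. In both, the arrays with knockdown lay above all others and 4-OHT alone at day 4 below. MIR193A read 7.07 and 6.99 with knockdown, 6.24 and 6.70 with 4-OHT alone and 6.24 untreated. MIR21, which is abundant in many carcinomas, read 6.06 and 6.49 with knockdown, 6.69 on both days with 4-OHT alone and 7.54 untreated. The mature RNAs from RefSeq (GRCh38.p14) are shown with the seed, bases 2 to 8, in capitals, because the neighbours that rose share it.
hsa-miR-181a-5p, chr9:124692480-124692502, plus strand: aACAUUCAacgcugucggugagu
hsa-miR-181b-5p, chr9:124693725-124693747, plus strand: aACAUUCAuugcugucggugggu
hsa-miR-193a-3p, chr17:31560050-31560071, plus strand: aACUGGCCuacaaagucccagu
hsa-miR-21-5p, chr17:59841273-59841294, plus strand: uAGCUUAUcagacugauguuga

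The genes that define the EMT mostly lay within the rule. In epithelial junction and polarity 3 of 42 fell (7.14%, near the 4.86% of all genes) and 0 rose. CLDN1, a tight junction claudin, read 7.77 and 8.57 with knockdown, 8.77 and 9.32 with 4-OHT alone and 10.11 untreated. EHF, an epithelial ETS factor, read 6.82 and 7.86 with knockdown, 8.56 and 8.10 with 4-OHT alone and 8.78 untreated. ST14, the membrane protease matriptase, read 8.04 and 7.55 with knockdown, 7.55 and 6.996 with 4-OHT alone and 8.88 untreated, so the treated arrays without knockdown were the lower ones. In CLDN1 and EHF the knockdown arrays were instead below 4-OHT alone of the same day. CDH1, E-cadherin and the classic target of Snail, read 10.88 and 10.94 with knockdown, 10.93 and 10.84 with 4-OHT alone and 10.70 untreated, and did not pass in either direction. With knockdown CLDN4 differed from untreated by -0.46 and -0.86 and CLDN7 by -1.13 and -0.50. CLDN4 was thus past 1.5-fold at day 4 only and CLDN7 at day 2 only. The epithelial markers EPCAM, at -0.26 and 0.10, and ELF3, at 0.35 and -0.31, were past it on neither day.

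Keratins and mesenchymal genes were uneven over time. Of 8 keratins 1 fell, KRT80, at 5.84 and 5.81 with knockdown, 6.01 and 5.81 with 4-OHT alone and 6.61 untreated. The keratin medians were -0.19 at day 2 and -0.64 at day 4 with knockdown, and -0.22 and 0.03 with 4-OHT alone. With knockdown KRT8 differed from untreated by -0.30 and -1.32 and KRT18 by -0.08 and -0.82, past 1.5-fold at day 4 only. KRT19, a simple epithelial keratin, read 10.54 and 9.23 with knockdown, 10.85 and 10.92 with 4-OHT alone and 10.84 untreated, low only at day 4 with knockdown. VIM, vimentin, the intermediate filament of mesenchymal cells, was also lowest there, at 7.49 and 6.57 with knockdown, 7.91 and 8.18 with 4-OHT alone and 7.94 untreated, though 5.69 in the untreated parental cells. In the mesenchymal and contractile list 1 of 23 rose and 1 fell, S100A4. The rise was TPM2, a tropomyosin, at 7.24 and 7.31 with knockdown, 7.27 and 7.69 with 4-OHT alone and 6.49 untreated. Its untreated parental level was 7.70, above both knockdown arrays. None of 8 gastric and intestinal genes, 12 oestrogen receptor targets or 11 kept EMT transcription factors passed, though KLF4, at -0.85 and -0.55, was past the rule once each array was centred on its median. ZEB1 and SNAI2, repressors of epithelial genes like Snail, were not kept because of their low mean level. ZEB1 read 5.16 and 5.41 with knockdown, 6.43 and 6.75 with 4-OHT alone and 6.09 untreated, and SNAI2 4.73 and 4.83 with knockdown, 5.04 and 5.39 with 4-OHT alone and 5.55 untreated. Both were more than 1.5-fold below untreated on both days with knockdown, by 0.94 and 0.68 for ZEB1 and by 0.82 and 0.72 for SNAI2.

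Matrix and growth factor genes added few calls. ITGA3, the integrin subunit that binds laminin, was the 1 of 19 matrix and basement membrane genes that rose, at 8.48 and 8.22 with knockdown, 7.68 and 8.28 with 4-OHT alone and 7.46 untreated. None of 16 genes of the EGF receptor family passed. BAMBI, a decoy receptor of TGFβ, was the 1 of 18 TGFβ and SMAD targets that fell, at 8.22 and 8.11 with knockdown, 9.74 and 9.23 with 4-OHT alone and 8.98 untreated. Of 21 YAP targets AJUBA, a LIM protein of junctions, rose, at 7.92 and 8.11 with knockdown, 8.17 and 7.71 with 4-OHT alone and 7.27 untreated. ANKRD1, a classic YAP target, fell, at 9.89 and 9.32 with knockdown, 10.90 and 10.99 with 4-OHT alone and 10.76 untreated. The kinase NUAK2 fell as well, at 7.65 and 7.10 with knockdown, 7.11 and 7.18 with 4-OHT alone and 8.31 untreated.

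Interferon genes differed in count between the arrays with and without knockdown, though the difference in counts was not tested. Of 41 interferon response genes, 1 rose and 2 fell with knockdown (2.44% and 4.88%, near the 1.87% and 4.86% of all genes), while 16 rose and 0 fell with 4-OHT alone, where 2.3% and 1.19% of all genes did. IFI6, an interferon-induced mitochondrial protein, read 6.99 and 7.39 with knockdown, 8.89 and 9.47 with 4-OHT alone and 8.15 untreated. IRF1, a transcription factor of the response, read 5.87 and 5.54 with knockdown, 6.61 and 6.21 with 4-OHT alone and 6.71 untreated. TRIM14, the 1 that rose, read 7.06 and 7.01 with knockdown, 6.94 and 6.75 with 4-OHT alone and 6.39 untreated, and was not past the rule after centring. Its untreated parental level was 7.61, above both knockdown arrays. The falls of IFI6 and IRF1 put their knockdown arrays below both arrays of 4-OHT alone. IFITM1, an antiviral membrane protein outside the rule at day 2, read 5.57 and 6.57 with knockdown, 9.04 and 10.43 with 4-OHT alone and 5.31 untreated.

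In MHC class I antigen processing 2 of 10 fell (20%, against 4.86% of all genes), the immunoproteasome subunit PSMB10 and the proteasome activator PSME2. PSMB10 read 7.15 and 6.94 with knockdown, 7.96 and 8.09 with 4-OHT alone and 8.19 untreated. PSME2 read 9.20 and 8.65 with knockdown, 10.03 and 10.28 with 4-OHT alone and 9.95 untreated. In the list of NF-kB targets and cytokines 2 of 19 fell (10.5%, against 4.86% of all genes), CCL2 and the inhibitor NFKBIA. NFKBIA read 9.48 and 8.97 with knockdown, 10.06 and 9.93 with 4-OHT alone and 10.31 untreated.

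NRF2 targets, the genes of the antioxidant response, split in direction, with 2 of 26 higher (7.69%, against 1.87% of all genes) and 3 lower (11.5%, against 4.86%). SLC7A11 and ABCC3 rose and GPX2, AKR1C3 and HMOX1 fell. HMOX1, haem oxygenase, read 8.01 and 7.82 with knockdown, 9.37 and 11.99 with 4-OHT alone and 8.78 untreated. ABCC3, an export pump for conjugates, was the 1 of 17 ABC transporters that rose, at 7.21 and 7.32 with knockdown, 6.85 and 7.67 with 4-OHT alone and 6.54 untreated. ABCC1, another drug efflux pump, read 8.65 and 7.89 with knockdown, 7.71 and 7.53 with 4-OHT alone and 7.37 untreated, past 1.5-fold at day 2 only. The transporters ABCG2 and ABCB1 were not kept because of their low mean level, and both lay below untreated with knockdown. ABCG2 did so by 0.72 and 0.60, more than 1.5-fold on both days, and ABCB1 by 0.23 and 0.41. None of 8 metallothioneins passed.

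Growth genes held few calls with knockdown. In DNA replication 1 of 41 fell, GINS4, a subunit of the replicative helicase, at 6.52 and 6.59 with knockdown, 7.71 and 7.38 with 4-OHT alone and 7.44 untreated. In mitosis 2 of 37 fell, CDCA8 and the phosphatase CDC25C, which read 7.54 and 7.42 with knockdown, 8.69 and 8.40 with 4-OHT alone and 8.14 untreated. The medians of the 2 lists at day 4 were -0.23 and -0.06 with knockdown and -0.60 and -0.65 with 4-OHT alone. In the growth arrest and p53 list 2 of 23 rose, SESN2 and XPC. XPC, a DNA damage sensor, read 7.55 and 7.70 with knockdown, 7.52 and 7.47 with 4-OHT alone and 6.94 untreated, and was not past the rule after quantile normalization.

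In the remaining lists the calls were scattered. Of 42 autophagy and lysosome genes ATG13 rose, by 0.67 and 0.68, and ATG4A and ATG14 fell, by 1.33 and 0.81 and by 0.71 and 0.64. Of 20 hypoxia-inducible factor targets 2 fell. TMEM45A, a transmembrane protein, read 6.43 and 6.12 with knockdown, 7.97 and 7.72 with 4-OHT alone and 7.38 untreated, and ANKRD37 read 6.91 and 6.84 with knockdown, 7.81 and 8.72 with 4-OHT alone and 7.71 untreated. Beyond the lists, 3 of 10 kept S100 genes fell (30%), S100A4, S100A6 and S100A13. So did 3 of 8 cystatins (37.5%), CST1, CST6 and CSTB, against 4.86% of all genes. Both families are small and were taken by symbol after values had been seen.

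**Figure D4:**
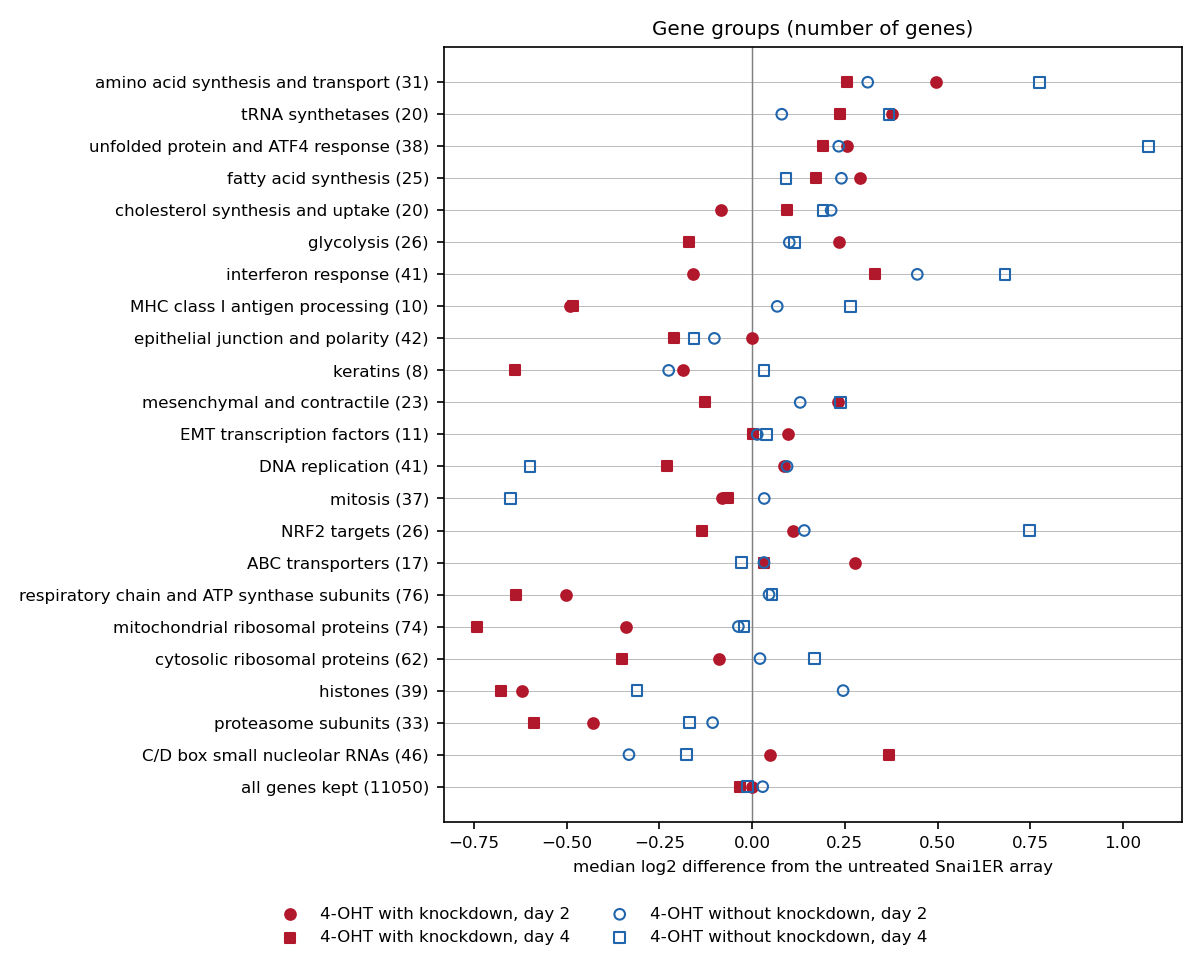
Median log2 difference from the untreated Snai1ER array (x axis) of gene groups, with the number of kept genes in brackets: filled red for 4-OHT with knockdown, open blue for 4-OHT without, circles for day 2 and squares for day 4. Respiratory chain subunits lie at -0.50 and -0.64 with knockdown and at 0.05 without, while the unfolded protein and ATF4 list at day 4 lies at 0.19 with knockdown and 1.07 without.

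Between the 2 knockdown arrays, day 4 was at least 1.5-fold above day 2 in 1073 genes (9.71%) and below it in 1224 (11.1%). Among genes past the rule, SCARNA9L, SNORD79, HCG8, MACC1 and ZNF248 had the largest rise over time. MACC1, a regulator of the receptor MET, fell less at day 4, at 8.04 and 9.30 with knockdown, 8.46 and 6.56 with 4-OHT alone and 10.44 untreated. GEMIN7, WDR83OS, CST1, FAU and UQCR11 had the largest fall over time. GEMIN7, of the complex that assembles spliceosomal particles, read 7.03 and 5.48 with knockdown, 7.70 and 7.51 with 4-OHT alone and 7.81 untreated. WDR83OS, a factor of membrane protein insertion, read 8.35 and 6.83 with knockdown, 9.16 and 9.73 with 4-OHT alone and 9.27 untreated.

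Set directly against the arrays of 4-OHT alone, which removes the untreated array but keeps the same knockdown arrays as the rule, the limma fit called 66 genes higher (0.597% of those tested) and 233 lower (2.11%) with knockdown. Of the 744 genes 172 were among them, 45 of those that rose and 127 of those that fell, each in the direction of its difference from untreated. The 744 were chosen on the same knockdown arrays, so neither this overlap nor its direction is independent support. GPX2 was lower by 3.67 ± 0.38 on the log2 scale (standard error, adjusted p 0.00518, limma) and NECTIN3 by 2.71 ± 0.27 (adjusted p 0.00518). S100A4 was lower by 3.02 ± 0.41 (adjusted p 0.0121) and HSPE1 by 1.499 ± 0.25 (adjusted p 0.0204). CYP19A1 was higher by 1.44 ± 0.26 (adjusted p 0.0287). INPP4B, higher by 1.38 ± 0.32, did not pass (adjusted p 0.0555), nor did SLC7A5, higher by 1.02 ± 0.44 (adjusted p 0.243). Of the 76 kept genes of the respiratory chain family 10 were called lower and 0 higher, against 2.11% and 0.597% of all genes. The family was chosen after values of these knockdown arrays had been seen, so its calls are not independent support either. The limma counts depend on the arrays and the model of the fit. The 5 Snai1ER arrays alone gave 3 calls, and the 4 treated Snai1ER arrays with a block by day gave 324. The fit without the 2 hypoxia arrays with knockdown gave 1229.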

How the data were processed

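Total RNA was extracted with Trizol, amplified and labelled with NuGEN kits and hybridised to Human Gene 1.0 ST arrays. The authors deposited log2 values made with RMA in Partek, whose versions are not given in the sources used here. The number of arrays, 1 per condition, limits the precision of every value. The members and lists were chosen with earlier results of these data known, and families taken by symbol were chosen after values were seen.

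Of 33297 probe sets, 19460 had 1 gene symbol, of which 19429 matched RefSeq by gene ID. Probe sets of a gene were averaged to 18417 genes, and 11050 with a mean at or above the 40th percentile (5.9) were kept. Of these, 175 had an identical value on 2 of the 3 arrays compared. Genes were called changed at 1.5-fold in the same direction on both days. limma 3.58.1 in R 4.3.3 fitted 14 arrays in 8 groups, with the 2 days of a group as its members, 6 residual degrees of freedom and Benjamini-Hochberg adjustment at 0.05. Nothing says that the days come from separate cultures, so p-values measure only the spread between these arrays. The fit was also run on simulated data with independent noise on every array, which cannot show whether the days vary like replicates.

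Named genes were SNAI1, ANGPTL4, the 15 largest rises and falls, up to 5 changed members of each list, the 5 largest rises and falls between the days, the 10 highest and lowest against 4-OHT alone, and the 10 nearest with and without knockdown. Other names were chosen after values were seen. Alternatives covered array scaling, the filter, the probe set rule, the fold rule, single days and the samples in the fit. Promoters and microRNAs came from RefSeq GRCh38.p14.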

Additional observations from a re-analysis of the deposited data

Results flagged for a closer look

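The level under 4-OHT differed with and without knockdown in 32 named genes by the limma fit at an adjusted p between 0.00518 and 0.0493. The values are log2 differences of the knockdown arrays minus those of 4-OHT alone, over 2 arrays each, and some genes were named for being extreme in this same contrast. No array analysed here holds knockdown cells without 4-OHT, so these are differences in level and not in the response to 4-OHT. Among genes of detoxification, adhesion and secretion the values were AKR1C3 (-4.54), GPX2 (-3.67), EDNRB (-3.42), NECTIN3 (-2.71), S100A4 (-3.02) and SPP1 (-4.10). Interferon and antigen genes gave IFITM1 (-3.66), IFI6 (-1.997) and PSME2 (-1.23). Mitochondrial genes gave UQCR11 (-1.87), HSPE1 (-1.50), COX6C (-1.03) and SDHC (-1.02). Other genes lower with knockdown were SNORD116-6 (-4.20), CST1 (-2.62), WDR83OS (-1.86), XAGE2 (-1.69), TMEM45A (-1.57), ANKRD1 (-1.34) and CDC25C (-1.07). The genes higher with knockdown were TMEM14EP (3.51), MTND2P28 (2.97), SNORD45B (2.86), SYT14 (2.73), OR13H1 (2.49), SNRPA1 (2.42), LINC02912 (2.39), GPR18 (2.35), EVI2B (2.26), SNORD28 (2.23), CYP19A1 (1.44) and CATSPER2 (1.33), several of them noncoding or pseudogenes. With the 5 Snai1ER arrays alone only 3 genes of all were called, and with the 4 treated Snai1ER arrays and a block by day 324. The number of calls thus depends on the arrays and the model of the fit. The cause of these differences was not tested.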

How the results depend on the processing

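The 207 rises and 537 falls stayed within 1.5 times under centring (165 and 640), quantile normalization (196 and 599), other filters, the brightest probe set and without identical values. The 2-fold rule gave 35 and 127, day 2 alone 798 and 1247, and day 4 alone 767 and 1341. Centring kept 702 of the 744 genes and quantile normalization 730. Counts between the days stayed within 1.5 times. The limma count against untreated, 0, was 52 without the 2 hypoxia arrays with knockdown and 13 without the filter. The count against 4-OHT alone, 299, was 3 with Snai1ER arrays only and 1229 without those hypoxia arrays. With the replicate block by day over the 4 treated Snai1ER arrays it was 324, where the shared day is all that pairs the arrays. No replicate could be left out, with 1 array per condition. Of the named genes 7 values lost the rule, SESN2, TRIM14 and ACACA on centring, GARS1, ACACA and XPC on quantile normalization and SCARNA9L with the brightest probe set, and none reversed. List medians are set against the spread between the days, since there are no replicates. That spread comes from the same 2 days. A list whose days disagree widely therefore stays within it, and a list with near days easily passes it. Glycolysis, at 0.23 and -0.17, and interferon response, at -0.16 and 0.33, changed sign between the days and stayed within it. A listed median is thus not a sign of an unsteady list. Medians beyond the spread follow, and the cause was not tested. At day 2 alone the list medians were keratins -0.19, EMT transcription factors 0.098, gastric and intestinal differentiation 0.022, oestrogen receptor targets 0.024, unfolded protein and ATF4 response 0.26, amino acid synthesis and transport 0.49, MHC class I antigen processing -0.49, cholesterol synthesis and uptake -0.084, mitosis -0.0798, respiratory chain and ATP synthase subunits -0.50, respiratory complex I -0.52, respiratory complex IV -0.47, ATP synthase -0.48, histones -0.62 and H/ACA small nucleolar RNAs 0.00697. At day 4 alone the list medians were epithelial junction and polarity -0.21, gastric and intestinal differentiation -0.00704, MHC class I antigen processing -0.48, mitosis -0.064, YAP targets -0.13, heat shock 0.13, respiratory complex III -1.10, histones -0.68, H/ACA small nucleolar RNAs 0.0799, cystatins -0.48 and S100 proteins -0.60. After quantile normalization the list medians were gastric and intestinal differentiation 0.012, MHC class I antigen processing -0.55, heat shock 0.026, histones -0.76, microRNA genes -0.00063 and small proline-rich proteins -0.55. With each array centred the list medians were gastric and intestinal differentiation 0.0089, unfolded protein and ATF4 response 0.16, MHC class I antigen processing -0.57, mitosis -0.16, heat shock 0.039, histones -0.76, microRNA genes 0.00047 and small proline-rich proteins -0.57.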
